A study of Mus musculus with 6 samples.

Results

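The small leucine-rich proteoglycans are secreted matrix proteins built from repeats rich in leucine, and 8 of their genes, Dcn, Bgn, Aspn, Lum, Fmod, Prelp, Omd and Ogn, are described here. They were chosen by name and with the opposite differences of Dcn and Bgn on these arrays already known, so that the values given for the 8 genes describe that choice and carry no test. A probe set, the unit that an array uses to measure a transcript, was counted to a gene where its annotation named that gene alone. This gave 18 probe sets for the 8 genes, out of 21556 probe sets for 13213 genes on the arrays. The probe sets naming several genes held 0 that named a member.

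RNA came from mOS482, a mouse osteosarcoma line derived from a spontaneous tumour null for Rb and p53. The cells carried either a stable hairpin against Sox2 (Sox2shRNA900), on 3 arrays labelled Sox2 shRNA, or a stable scrambled hairpin, on 3 arrays labelled scrambled. Both groups grew in serum-containing medium with hygromycin, and the 3 replicates of a group were plates of 1 infected line, so that p-values measure the spread between plates and not between lines. Sox2, a transcription factor of stem cells, was the target of the hairpin, and the study asked what its loss changes in these cells.

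The family is sorted into classes by sequence and gene structure. Class I holds decorin, biglycan and asporin. Decorin and biglycan carry chondroitin or dermatan sulfate chains, and asporin carries none. Class II holds lumican, fibromodulin, PRELP, osteomodulin and keratocan, of which several carry keratan sulfate, and class III holds osteoglycin, epiphycan and opticin. The proteins sit on collagen fibrils, where they shape fibril width and spacing, and they bind growth factors such as TGF-beta. In bone, decorin, biglycan, osteomodulin and osteoglycin are made by cells of the osteoblast lineage and are found in the unmineralised and mineralised matrix. In the annotation deposited with the arrays, all 8 genes carried the terms extracellular region and proteinaceous extracellular matrix. Dcn and Bgn shared 2 binding terms, for extracellular matrix and for glycosaminoglycan, that no other of the 8 carried.

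All values are log2 and were centred by the authors, probe set by probe set, close to the scrambled arrays. A value of 0 thus stands for the scrambled level, the true level of a gene is unknown, and a difference of 1 is 2-fold. A difference is the Sox2 shRNA mean minus the scrambled mean, with ± for the SE of the linear model (limma) and 3 arrays per group. A gene is called where its limma p, adjusted over all 13213 genes by Benjamini-Hochberg, is under 0.05. Array 1 of the Sox2 shRNA group stood somewhat apart, with a correlation over all probe sets of 0.831 and 0.811 with arrays 2 and 3, which correlated at 0.911 with each other. The added hybridisation controls read 1.26, 0.58 and 0.56 in the Sox2 shRNA arrays, against 0.24, -0.13 and -0.22 in the scrambled arrays, 18 probe sets with a mean difference of 0.84. The 27 poly-A controls differed by 0.17, and all 45 spike-in probe sets together by 0.44. Their part in the differences below was not tested. A fit with the mean of all 45 as a covariate, called the spike-in covariate here, was run as an alternative. That mean was 0.67, 0.32 and 0.27 in the Sox2 shRNA arrays, against 0.11, -0.060 and -0.10 in the scrambled arrays. Because it separates the groups, this fit cannot tell the control level from the hairpin, and no cause is read from a call lost in it. The probe set of Sox2 itself was not lower in its arrays, at 0.17, 0.055 and 0.58 in the arrays labelled Sox2 shRNA against 0.069, -0.039 and -0.033 in the scrambled arrays (limma adjusted p = 0.154). Each direction below therefore follows the array labels and not a measured loss of Sox2.

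Decorin and biglycan, both of class I and both with chondroitin or dermatan sulfate chains, lay at opposite ends of the ranking of genes. Dcn was far higher and Bgn far lower in the arrays labelled Sox2 shRNA, Ogn was lower by a smaller amount, and the 5 other genes differed by 0.18 or less. By the call over all genes, 1 of the 8 was higher, 2 were lower and 5 were not called. Over all genes, 16.8% were called higher and 21.8% lower, together 38.5%, and at least 2-fold changes made up 2.68% for higher and 3.62% for lower genes. Dcn passed 2-fold upwards and Bgn downwards. Because the genes were chosen on this same comparison, nothing is read from these counts. The median difference of the 8 genes was 0.046, against 0.078 for all genes, and it was also 0.046 for the 6 genes other than Dcn and Bgn.

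**Figure D1:**
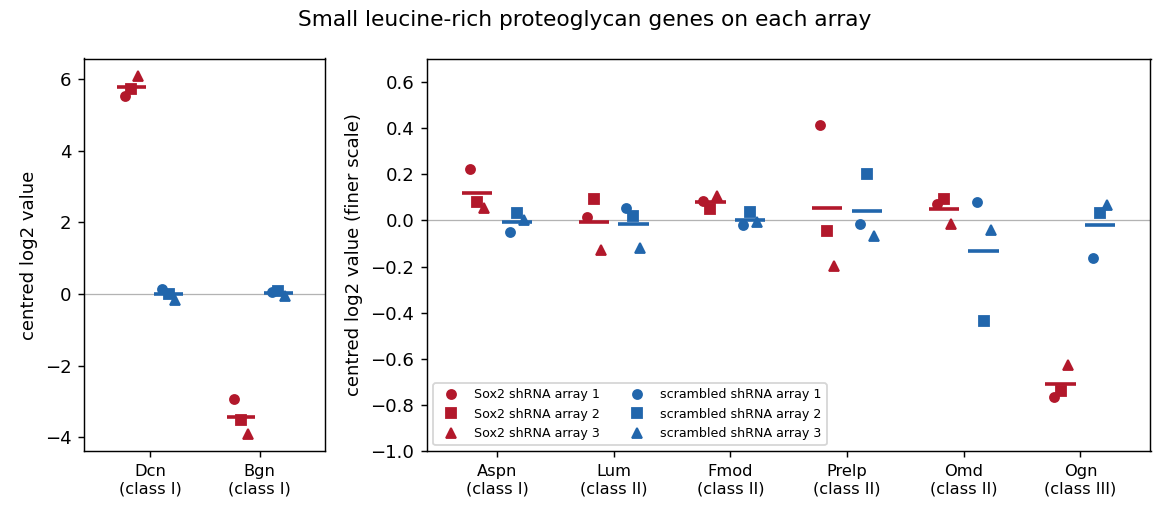
Centred log2 value of each of the 8 genes on each array, with Dcn and Bgn on the left and the other 6 genes on a finer scale on the right; red symbols are the 3 Sox2 shRNA arrays, blue symbols the 3 scrambled arrays, and horizontal lines the group means. Dcn lies at 5.52 to 6.07 and Bgn at -3.90 to -2.93 in the Sox2 shRNA arrays, and of the others Ogn alone has a gap between the groups wider than 0.1.

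The first of the class I genes, Dcn, encodes decorin, which binds collagen fibrils, TGF-beta and several receptor tyrosine kinases. Its single probe set, 1449368_at, aligned to the plus strand of chromosome 10 at 96942185 to 96980797 (the deposited alignments name no build). It read 5.52, 5.72 and 6.07 in the Sox2 shRNA arrays, against 0.15, 0 and -0.16 in the scrambled arrays. The groups were separated by 5.38, many times the spread within either of them. The difference was 5.77 ± 0.15, or 54.7-fold higher, and ranked as number 4 from the top among all genes. With each array left out in turn it stayed between 5.63 and 5.90.

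Bgn, the gene of biglycan, a signal for innate immune receptors as well as a bone matrix protein, showed the reverse. It aligned to the plus strand of chromosome X at 70728980 to 70741722. The mean of its 3 probe sets was -2.93, -3.50 and -3.90 in the Sox2 shRNA arrays, against 0.056, 0.089 and -0.059 in the scrambled arrays. The groups were 2.87 apart at their nearest arrays, and the Sox2 shRNA arrays were spread more widely (SD 0.49) than the scrambled arrays (SD 0.077). The difference was -3.47 ± 0.22, or 11.1-fold lower, number 6 from the bottom of all genes, and lay between -3.73 and -3.24 with each array left out.

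The 3 Bgn probe sets did not give the same size. Probe set 1416405_at read -3.79, -4.29 and -4.16 in the Sox2 shRNA arrays, against 0.11, 0 and -0.12 in the scrambled arrays, a difference of -4.08 ± 0.15 (16.9-fold lower). Probe set 1448323_a_at differed by -3.66 ± 0.30 (12.7-fold lower). The third, 1437889_x_at, aligned to a stretch of 450 bases inside the gene and differed by -2.67 ± 0.28 (6.38-fold lower), at -1.89, -2.79 and -3.09 in the Sox2 shRNA arrays against -0.031, 0.27 and 0.014 in the scrambled arrays. All 3 put every Sox2 shRNA array below every scrambled array.

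Taken on the same array, Dcn minus Bgn joins the 2 opposite differences given above, so its size follows from them. Dcn minus Bgn was 8.45, 9.22 and 9.97 in the Sox2 shRNA arrays, against 0.093, -0.089 and -0.10 in the scrambled arrays. The gap was widest in array 3 and narrowest in array 1 of the Sox2 shRNA group, and its means differed by 9.25 between the groups. This is a difference of 2 centred values and does not say which proteoglycan was the more abundant in either group.

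Aspn, the third class I gene, encodes asporin, which competes with decorin for collagen and binds TGF-beta. Its 2 probe sets averaged 0.22, 0.078 and 0.053 in the Sox2 shRNA arrays, against -0.050, 0.032 and 0.00085 in the scrambled arrays. The groups did not overlap, but the nearest arrays were only 0.021 apart. The difference was 0.12 ± 0.085, and in each probe set by itself, at 0.19 ± 0.13 and 0.056 ± 0.092, the groups overlapped. Class I thus spanned the whole range of the family.

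The 4 class II genes differed little, with a median of 0.046, and 0 of them was called. Lum encodes lumican, a keratan sulfate proteoglycan known for its part in the transparency of the cornea. It read 0.015, 0.094 and -0.13 in the Sox2 shRNA arrays, against 0.055, 0.019 and -0.12 in the scrambled arrays, and the groups covered the same range. The difference was 0.0079 ± 0.096.

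Fmod, the gene of fibromodulin, which guides the cross-linking of tendon collagen, had 6 probe sets. Their mean was 0.086, 0.050 and 0.11 in the Sox2 shRNA arrays, against -0.021, 0.037 and -0.0069 in the scrambled arrays, a difference of 0.078 ± 0.077. The nearest arrays of the groups were 0.012 apart. Single probe sets differed by -0.084 to 0.33, and the groups overlapped in all but 1415939_at (0.23 ± 0.11). The others end in _x_at, a mark of probe sets that can match several transcripts, and all align within the same 300 bases. The mean thus rests mostly on that stretch, and without them Fmod differed by 0.23 and was not called.

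Prelp, whose protein has a basic end that binds heparan sulfate, was the most variable member among the Sox2 shRNA arrays after Bgn. Its 2 probe sets averaged 0.41, -0.048 and -0.20 in the Sox2 shRNA arrays, against -0.015, 0.20 and -0.066 in the scrambled arrays, a difference of 0.015 ± 0.16 with overlapping groups. Array 1 of the Sox2 shRNA group stood highest, mainly through probe set 1416322_at (0.77), and without it the difference was -0.16. The 2 probe sets differed by 0.18 ± 0.23 and -0.15 ± 0.12.

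Omd encodes osteomodulin, also called osteoadherin, a keratan sulfate proteoglycan of mineralised bone matrix that binds hydroxyapatite and supports osteoblast attachment. It read 0.068, 0.094 and -0.018 in the Sox2 shRNA arrays, against 0.080, -0.44 and -0.044 in the scrambled arrays. A single scrambled array was low and the groups overlapped. The difference of 0.18 ± 0.14 came to 0.030 without scrambled array 2.

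Ogn, the class III gene of osteoglycin or mimecan, known from bone and cornea, was lower. Its 2 probe sets averaged -0.76, -0.74 and -0.62 in the Sox2 shRNA arrays, against -0.16, 0.034 and 0.068 in the scrambled arrays. The groups were 0.46 apart. The difference was -0.69 ± 0.096, or 1.61-fold lower, and stayed between -0.76 and -0.64 with each array left out. Probe set 1419663_at carried most of it, at -1.19, -1.21 and -0.93 in the Sox2 shRNA arrays against -0.10, 0.067 and 0.094 in the scrambled arrays (-1.13 ± 0.12, 2.19-fold lower). Probe set 1419662_at read -0.34, -0.26 and -0.32 in the Sox2 shRNA arrays, against -0.22, 0 and 0.042 in the scrambled arrays, a difference of -0.25 ± 0.11 that was not called. With the level of the spike-in controls as a covariate, Ogn differed by -0.50 and was not called.

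Across the 8 genes, the arrays of the groups did not overlap in 5 (Dcn, Bgn, Aspn, Fmod and Ogn) and overlapped in 3 (Lum, Prelp and Omd). Over all genes, 56.9% did not overlap. For the flat genes it is unknown whether their probe sets lay above background, and one that lay at background would show no fall. In RNA of whole cultures, fewer cells of a kind and less RNA per cell cannot be told apart.

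**Figure D2:**
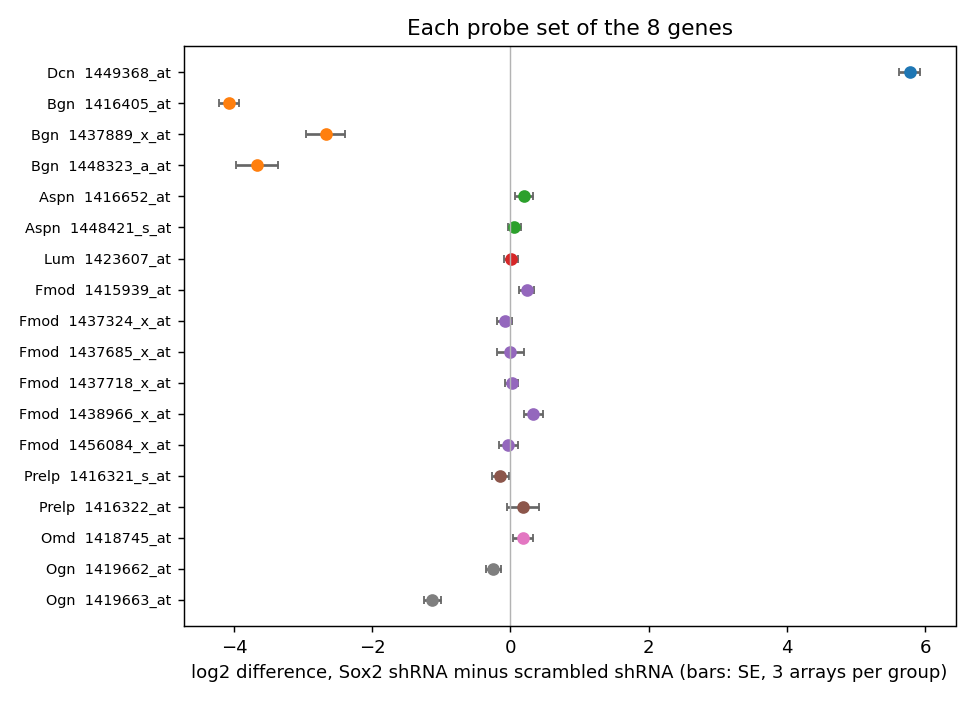
Log2 difference, Sox2 shRNA minus scrambled, of each of the 18 probe sets of the 8 genes, with bars for the SE over 3 arrays per group. The Dcn probe set lies at 5.77, the Bgn probe sets between -4.08 and -2.67, and the Ogn probe sets apart at -1.13 and -0.25.

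The promoters of the 2 genes that were lower, Bgn and Ogn, are shown to compare their base composition and the short motifs in them. Each runs over the 250 bases before the gene's start, from the RefSeq table of build GRCm38.p6, with Bgn at chrX:73483351-73483600 and Ogn at chr13:49607765-49608014, both on the plus strand. Capitals mark matches, on either strand, to the motifs searched: a SOX core (ACAAT), an IRF core (GAAANNGAA), AP-1 (TGANTCA), TEAD (GGAATG), an E-box (CANNTG) and a TATA box (TATAAA).
Bgn: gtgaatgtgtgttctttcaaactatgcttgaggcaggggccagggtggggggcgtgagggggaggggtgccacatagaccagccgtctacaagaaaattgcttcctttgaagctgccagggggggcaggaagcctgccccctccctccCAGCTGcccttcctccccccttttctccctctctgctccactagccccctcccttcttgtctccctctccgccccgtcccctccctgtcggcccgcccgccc
Ogn: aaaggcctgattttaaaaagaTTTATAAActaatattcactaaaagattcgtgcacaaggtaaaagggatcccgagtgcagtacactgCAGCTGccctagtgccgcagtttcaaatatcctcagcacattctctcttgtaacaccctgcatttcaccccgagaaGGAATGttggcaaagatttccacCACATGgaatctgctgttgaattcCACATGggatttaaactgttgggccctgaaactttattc

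These promoters shared a single kind of match and differed in composition. The Bgn promoter was rich in G and C (64.4%) and that of Ogn was not (42%), against a median of 52.4% over 32851 mouse promoters. Bgn had a single match, to the E-box, that began 102 bases before the start. Ogn had E-boxes 162, 63 and 39 bases before the start, a TEAD match at 86 and a TATA box match on both strands, overlapping, at 229 and 227. An E-box was present in 66.2% of all promoters, a TEAD match in 12.6% and a TATA box in 12.4%.

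The table held promoters for 6 of the 8 genes. It held none for Dcn and Lum, so their promoters were not searched. The SOX core, in 27.7% of all promoters, was found in those of Prelp, Aspn and Omd, 3 genes that were not called, and in neither of the promoters shown. Aspn had a TATA box as well, and Fmod and Aspn an E-box. The IRF core (7.13% of all promoters) and AP-1 (6.75%) were found in 0 of the 6. A match is a run of letters and not a bound site, and its lack says only that the letters are not in these 250 bases.

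Most of the family lies in clusters, which the choice of genes did not use. Dcn and Lum are 47.3 kb apart on chromosome 10, followed by Kera 34.5 kb further on and Epyc 33.4 kb after that. Aspn, Omd and Ogn follow each other on chromosome 13 with gaps of 15.2 kb each, and Optc, Prelp and Fmod lie on chromosome 1 with gaps of 3.10 and 116 kb. Bgn is the only one of the 8 on chromosome X. The family member next to Dcn or Ogn did not show a difference of like size. Lum differed by 0.0079 beside Dcn at 5.77, and Omd by 0.18 beside Ogn at -0.69.

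Other genes near Dcn differed little. Kera, which encodes keratocan, the keratan sulfate proteoglycan of the cornea, rose by 0.43 ± 0.11 (limma adjusted p = 0.0201). It read 0.27, 0.57 and 0.45 in the Sox2 shRNA arrays, against 0.051, -0.18 and 0.11 in the scrambled arrays. That call was lost with the spike-in covariate and without scrambled array 2. Epyc, the gene of the cartilage proteoglycan epiphycan, differed by 0.31 ± 0.17 (limma adjusted p = 0.187), with array 1 of the Sox2 shRNA group at 0.73 and arrays 2 and 3 at 0.11 and 0.057. The last measured gene within 500 kb, Ccer1, differed by 0.31 ± 0.14 (limma adjusted p = 0.114). On all of chromosome 10, 68 of 576 genes (11.8%) were called higher and 224 (38.9%) lower, against 16.8% and 21.8% of all genes, and 10.4% were at least 2-fold lower. Dcn thus lay on a chromosome where more genes were lower than higher, and the part of that shift in its neighbours was not tested.

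Around Aspn, Omd and Ogn, 3 of the 7 other measured genes within 500 kb fell and 0 rose. On all of chromosome 13, 25.9% of genes were called lower and 14.4% higher. The nearest neighbour on the far side, Iars, an isoleucyl-tRNA synthetase, fell by 1.37 (SE 0.28, limma adjusted p = 0.00740). On the near side Ippk, an inositol phosphate kinase, fell by 0.42 (SE 0.077, limma adjusted p = 0.00406), while Bicd2 and Fgd3 differed by -0.095 and -0.0088 and were not called. The median of the 7 was -0.095. On all of chromosome 1, 17.0% of genes were called higher and 22.3% lower. Of 13 neighbours of Prelp and Fmod there, 2 rose and 5 fell, with a median of 0.024. They included Chil1, a secreted chitinase-like protein, which rose by 2.66 ± 0.16 (limma adjusted p = 2.4e-05) 134 kb beyond Fmod. Opticin, Optc, differed by 0.18 ± 0.094 (limma adjusted p = 0.166).

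Near Bgn the genes went both ways. Of 20 measured within 500 kb, 6 rose and 6 fell, with a median of 0.0087 and a range of -1.20 to 1.75, so that each differed by less in size than Bgn. The mitotic spindle gene Haus7, 24.6 kb away, fell by 0.89 (SE 0.15, limma adjusted p = 0.00266), and next to it the exonuclease gene Trex2 rose by 0.35 ± 0.085 (limma adjusted p = 0.0138). On the other side the phosphatase gene Dusp9 rose by 0.40 ± 0.078 (limma adjusted p = 0.00545) and the creatine transporter Slc6a8 fell by 0.83 (SE 0.093, limma adjusted p = 4.3e-04). On all of chromosome X, 31 of 415 genes (7.47%) were called higher and 159 (38.3%) lower, against 17.4% higher and 20.4% lower on the other chromosomes. At least 2-fold falls made up 14.5% of X-linked genes, against 3.19% elsewhere. The share lower was about that of chromosome 10 (38.9%), so it was not particular to X, and the part of this shift in the value of Bgn was not tested.

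**Figure D3:**
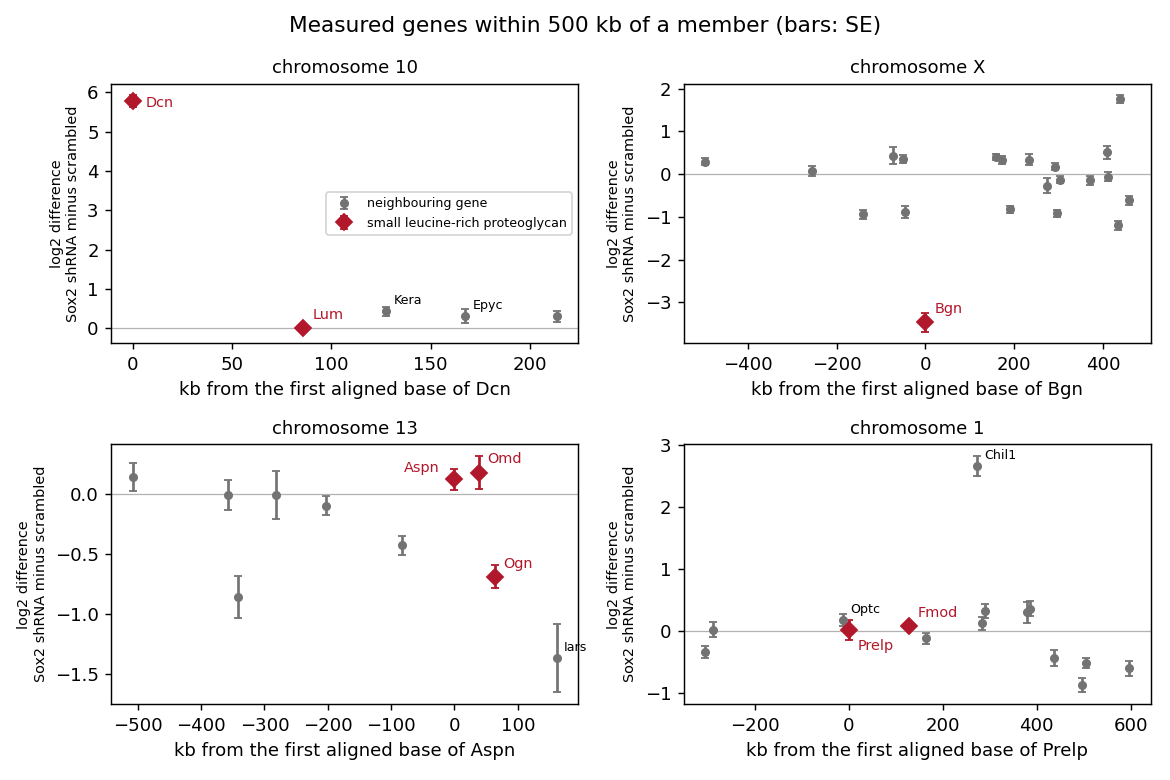
Log2 difference, Sox2 shRNA minus scrambled, with its SE, of every measured gene within 500 kb of the 8 genes, against the distance in kb from the first aligned base of Dcn, Bgn, Aspn or Prelp; red diamonds are the 8 genes and grey points their neighbours, and the vertical scales differ. Dcn and Bgn stand alone in their panels, at 5.77 and -3.47, with every neighbour between -1.20 and 1.75.

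The genes whose values over the 6 arrays lay nearest to those of Dcn, by Euclidean distance in log2 units, were the protease inhibitor Serpine2 (0.456) and the metalloproteinase Mmp3 (0.481). Mmp10 (1.14), the interferon-induced Ifi44 (1.36) and complement C3 (1.55) came next. The nearest to Bgn were the transcription factor Zic1 (0.414), the matrix protein Tgfbi (1.24), the homeobox gene Dlx5 (1.31), Hspa1b (1.75) and Mmp23 (2.10). These distances rest on 6 arrays in 2 groups and mostly reflect the size of the difference between the groups. Zic1 read -3.18, -3.71 and -3.69 in the Sox2 shRNA arrays, against -0.042, 0 and 0.016 in the scrambled arrays, close to the Bgn values.

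Of 10 other genes of the wider leucine-rich proteoglycan family, 5 were measured, 3 rose and 0 fell, with a median of 0.34 against 0.078 for all genes. The counts of this and the following lists stand beside 16.8% higher and 21.8% lower, together 38.5%, of all genes. Besides Kera these were Tsku, the secreted signalling modulator tsukushi (0.57 ± 0.14, limma adjusted p = 0.0150), and Chad, the cartilage protein chondroadherin (0.34 ± 0.088, limma adjusted p = 0.0175). Of these 3, 0 was called with the spike-in covariate, and without scrambled array 1, 2 or 3 the count was 1, 0 or 1.

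Genes that build the sugar chains went both ways. Of the linker enzymes, which start every chondroitin, dermatan or heparan sulfate chain, 1 of 5 measured rose and 0 fell (median 0.041). It was the galactosyltransferase gene B4galt7, at 0.49, 0.47 and 0.38 in the Sox2 shRNA arrays against 0.015, 0.020 and -0.052 in the scrambled arrays (0.45 ± 0.080, limma adjusted p = 0.00367), and it lost its call without probe sets that can match several transcripts. Of 10 measured genes for chondroitin and dermatan sulfate, the chains of decorin and biglycan, 2 rose and 4 fell, with a median of -0.20.

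The enzymes of chondroitin sulfate that start a chain moved apart. Csgalnact1 rose, at 1.02, 0.68 and 1.17 in the Sox2 shRNA arrays against 0.022, 0.091 and -0.060 in the scrambled arrays (0.94 ± 0.13, limma adjusted p = 0.00124). Csgalnact2, which adds the same first sugar, fell by 0.87 (SE 0.14, limma adjusted p = 0.00266). Chpf, a factor for chain extension, fell by 0.79 (SE 0.092, limma adjusted p = 5.2e-04), and Chst12, a 4-O-sulfotransferase, by 0.51 (SE 0.097, limma adjusted p = 0.00502). With the spike-in covariate 1 of the list was higher and 1 lower, the higher count was 1 without scrambled array 1 or 3, and the median came to 0.035 with that covariate and to -0.081 without Sox2 shRNA array 1.

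Of 5 measured genes for keratan sulfate, the chain of lumican and its class, 1 rose and 1 fell, with a median of 0.22, and 2 of 5 is near the 38.5% of all genes. Chst2, a sulfotransferase for N-acetylglucosamine, fell by 0.84 (SE 0.15, limma adjusted p = 0.00370), and Chst1, which sulfates the galactose of keratan sulfate, rose by 0.37 ± 0.081 (limma adjusted p = 0.00958). Chst5 and B4galt4 differed by 0.22 and 0.23, short of the threshold. Neither call was kept with the spike-in covariate, and without scrambled array 3 the count of higher genes was 0.

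Proteases that cut these proteoglycans or trim their precursors, listed with the enhancer Pcolce, were higher in 5 and lower in 2 of 13 genes (median 0.30). Mmp3, which can cut decorin, read 5.47, 6.09 and 6.10 in the Sox2 shRNA arrays, against -0.013, -0.032 and 0.098 in the scrambled arrays (5.87 ± 0.17, limma adjusted p = 6.1e-07). The collagenase Mmp13 rose by 4.62 ± 0.26 (limma adjusted p = 1.9e-05), the serine protease Htra1 by 1.19 ± 0.082 (limma adjusted p = 4.9e-05) and the gelatinase Mmp2 by 1.03 ± 0.12 (limma adjusted p = 6.1e-04). These 4 were at least 2-fold higher. The 2 lower genes were Adamts1 (-0.90 ± 0.13, limma adjusted p = 0.00164) and Mmp14 (-0.50 ± 0.10, limma adjusted p = 0.00636). Bmp1, which trims precursors, differed by 0.0069 ± 0.089 and was not called. Without Sox2 shRNA array 1, 8 genes were higher, and with the spike-in covariate 0 were lower.

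Of 16 collagens and partners of the fibril, 5 rose and 3 fell, with a median of 0.21. Col1a1, a chain of type I collagen and a binding partner of decorin, read 3.38, 3.62 and 3.65 in the Sox2 shRNA arrays, against 0.014, 0.051 and 0.040 in the scrambled arrays (3.52 ± 0.096, limma adjusted p = 4.7e-07). Its partner chain Col1a2, chosen after its value was seen, fell by 0.42 (SE 0.13, limma adjusted p = 0.0325). The 2 probe sets of Col1a2 differed by -0.77 and -0.062. The type VI chains Col6a2 (1.50 ± 0.12, limma adjusted p = 1.2e-04) and Col6a1 (0.87 ± 0.11, limma adjusted p = 6.5e-04) and the type XI chain Col11a1 (0.82 ± 0.086, limma adjusted p = 3.4e-04) rose. The 2 probe sets of Col11a1 differed by 0.33 and 1.30. Another type VI chain, Col6a3, differed by only 0.020 ± 0.17 and was not called (limma adjusted p = 0.932). The count of lower genes was 0 with the spike-in covariate.

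Among 17 receptors, sensors and growth factors that these proteoglycans bind or signal through, 7 rose and 2 fell, with a median of 0.34. Lrp1, an endocytic receptor for decorin, fell by 1.02 (SE 0.083, limma adjusted p = 1.1e-04), and Ccn4, a matricellular protein that binds decorin and biglycan, by 0.99 (SE 0.13, limma adjusted p = 8.0e-04). The receptor genes Egfr (0.56 ± 0.080, limma adjusted p = 0.00134) and Igf1r (0.66 ± 0.12, limma adjusted p = 0.00390) rose, although the probe sets of Egfr ranged from -0.062 to 1.50. In the fit with the spike-in covariate 3 of the list were higher.

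Of 21 other matrix and cell surface proteoglycans, 7 rose and 3 fell, with a median of 0.24. The glypican Gpc4 read 2.00, 1.89 and 2.01 in the Sox2 shRNA arrays, against -0.0070, 0.090 and -0.079 in the scrambled arrays (1.97 ± 0.087, limma adjusted p = 5.7e-06). Cspg4, a chondroitin sulfate proteoglycan of progenitor cells, rose by 0.40 ± 0.078 (limma adjusted p = 0.00560), with probe sets at 0.17 and 0.63. The syndecans Sdc2 and Sdc3 fell by 0.67 (SE 0.13, limma adjusted p = 0.00544) and 0.85 (SE 0.15, limma adjusted p = 0.00398). Their probe sets ranged from -1.33 to -0.075 for Sdc2 and from -2.68 to 0.37 for Sdc3. With the spike-in covariate 3 were higher and 1 was lower.

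**Figure D4:**
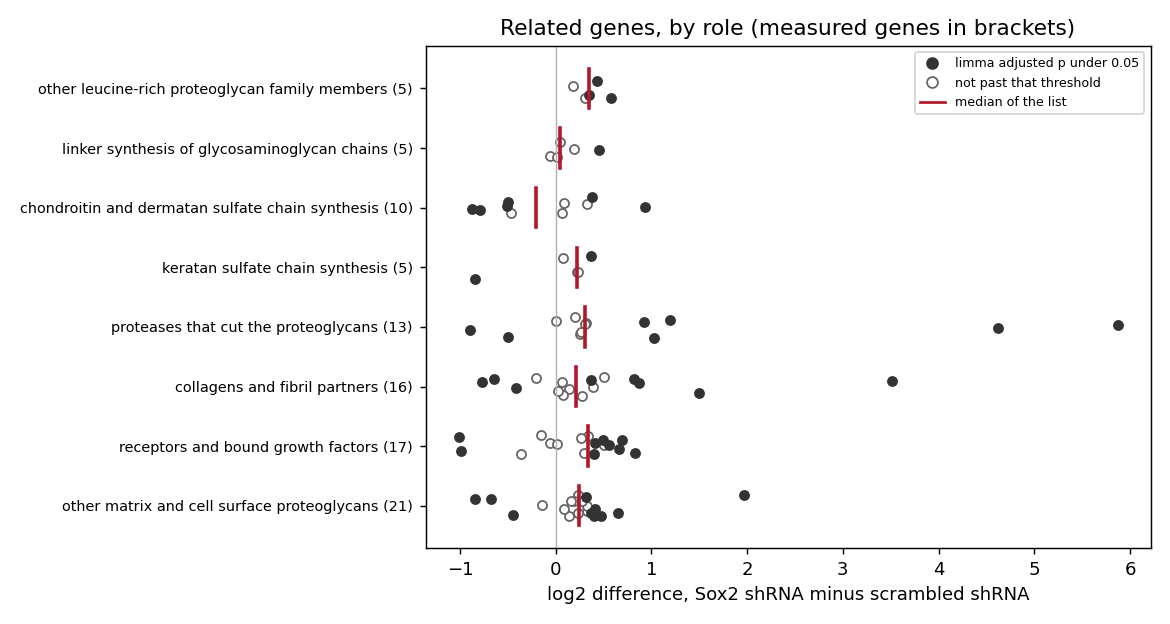
Log2 difference, Sox2 shRNA minus scrambled, of each measured gene of 8 related lists, with filled symbols for genes called by limma over all genes, open symbols for the others and a red line at the median of each list. Mmp3, Mmp13 and Col1a1 lie farthest to the right, at 5.87, 4.62 and 3.52, and the list medians lie between -0.20 and 0.34.

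Markers of cell lineages are given beside these values, with the same 16.8% higher and 21.8% lower over all genes. Col1a1, Col1a2, Col2a1, Acan and Kdr were also counted in the lists above. Of 11 osteoblast markers 2 were higher and 4 lower, with medians per array of -0.24 to -0.056 in the Sox2 shRNA arrays, against -0.010 to 0.040 in the scrambled arrays. These medians hide large differences both ways, with Col1a1 at 3.52, Alpl at 0.99, Dlx5 at -2.69 and Phex at -1.48. The probe sets of Phex ranged from -3.24 to 0.29. Tendon and fibroblast markers (2 higher and 1 lower of 7) had medians of 0.13 to 0.24 in the Sox2 shRNA arrays, against -0.0077 to 0.00058 in the scrambled arrays. Chondrocyte markers (2 higher and 0 lower of 6) had medians of 0.14 to 0.51 in the Sox2 shRNA arrays, against -0.060 to 0.0092 in the scrambled arrays. Leukocyte markers (2 higher and 1 lower of 7) had medians of 0.12 to 0.53 in the Sox2 shRNA arrays, against -0.053 to 0.043 in the scrambled arrays. Of 6 endothelial markers 0 was called, with medians of 0.061 to 0.33 in the Sox2 shRNA arrays, against -0.045 to 0.022 in the scrambled arrays. Because the deposited values are centred, whether any of these markers is absent cannot be read from them, and their part in the differences of the 8 genes was not tested.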

How the data were processed

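RNA from 6 cultures was hybridised to 1-colour Affymetrix mouse genome arrays by the authors, per the labels' protocols. GCOS 1.4 and RMA are named in the submitters' processing notes, without settings. The deposited values are on a log scale of unstated base, taken as log2 as RMA gives it, and were centred per probe set near the scrambled arrays, as the values show. In 37.5% of probe sets scrambled array 2 held exactly 0. Centring keeps differences and removes levels, so that signal over background is unknown. Precision is limited by the 3 arrays per group.

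Of 22690 probe sets, 578 named several genes, 543 none and 21569 exactly 1. Of these last, 21556 were not among the 64 array controls and were used. They were averaged per gene, which gave 13213 genes, and 21181 of the probe sets matched RefSeq by Entrez number. Coordinates are those of the deposited table, whose build is not stated. The comparison used lmFit and eBayes of limma 3.58.1 in R 4.3.3 without covariates, with Benjamini-Hochberg adjustment over all genes and a threshold of 0.05. The fit was tested on simulated data.

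The 8 genes, the lists and the alternatives were chosen with earlier results of these data known. Named were the 8 genes with all probe sets, up to 4 genes of each list by smallest adjusted p, up to 3 nearest genes on each side of a member within 500 kb, and for Dcn and Bgn the 5 nearest genes by distance over the arrays. Genes outside that rule, among them Col1a2, Col6a3, Sdc1, Sdc4, Gpc6, Adamts1 and Mmp14, were added after their values were seen. The replicate numbers were not taken to pair the samples, since the deviations of same-numbered arrays correlated at 0.116, -0.025 and 0.170. Alternatives were the replicate block, median centring, the other deposited table, other probe set rules, a variance trend, array weights, a spike-in covariate, a threshold of 0.01 and each array left out. Figures were drawn with matplotlib 3.10.9.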

Additional observations from a re-analysis of the deposited data

How the results depend on the processing

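Dcn and Bgn kept their direction and their call under every alternative run, and the 5 genes that were not called stayed so. These calls carry no test, because the genes were chosen on this same comparison. The other deposited table differed in 0 values, so the same result from it was certain. Ogn kept its direction but lost its call with the spike-in covariate (-0.50) and for probe set 1419662_at alone (-0.25), and the cause was not tested. With the replicate number as a block, 2136 genes were higher and 2784 lower, and no call among the 8 genes changed. The differences of Dcn (5.77) and Bgn (-3.47) could not move there, since every block held an array of each group. With each array left out, the genes called ranged from 1155 to 2695 higher and from 1944 to 3135 lower. With the spike-in covariate 961 genes were higher and 1166 lower, and at a threshold of 0.01 the counts were 1058 and 1848, as a stricter threshold must give fewer. For the lists, the spike-in covariate gave 0 higher among the other family members, 1 higher and 1 lower for chondroitin and dermatan sulfate, 0 higher and 0 lower for keratan sulfate, 0 lower for the proteases and 0 lower for the collagens. It gave 3 higher for the receptors, and 3 higher and 1 lower for the other proteoglycans. The linker list had 0 higher without probe sets ending in _x_at or _s_at and 1 lower with the most variable probe set per gene. With array weights the proteases had 8 higher and the other proteoglycans 11 higher. With an array left out, the higher counts were 0 to 3 for the other family members, 1 to 3 for chondroitin and dermatan sulfate, 0 to 1 for keratan sulfate and 5 to 8 for the proteases. The list medians that moved by over 1.5 times were the linker list (from -0.0083 with arrays centred on their medians to 0.33 with the spike-in covariate), the other family members (0.17 with the covariate), the other proteoglycans (0.16 with the covariate), the keratan sulfate list (0.13 without Sox2 shRNA array 1) and the chondroitin and dermatan sulfate list (0.035 with the covariate and -0.081 without that array).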
